A study of Caenorhabditis elegans with 26 samples.

Results

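Wild-type XX embryos of Caenorhabditis elegans grown on NG plates were compared, gene by gene, with wild-type XX embryos grown on egg plates. The comparison takes the 6 of 26 arrays whose titles give the wild type, one of these plates and the same date, 3 arrays for each plate. In the series the NG arrays are the controls of dpy-27(y57) embryos, and the egg-plate arrays are controls of XO embryos that carry her-1, xol-1, sdc-2 and unc-9 alleles. Both groups have the wild-type genotype and share every handling step the labels give: embryos were released by bleaching from gravid adults and frozen before RNA extraction. The labels state neither the composition of the plates nor the bacteria on them, and the series text calls the replicates biological. The titles carry 5 dates, numbered here from 1 to 5 from the earliest on. Both groups have date code 2, and 3 more wild-type XX arrays from egg plates have date code 4. The series also holds sdc-2 XX embryos, with SDC2Y93R in their titles, and wild-type XX embryos, both from RNA interference (RNAi) plates. These enter only where all 26 arrays are used.

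An embryo starts with messages that its mother stored in the oocyte, which are cleared as its own genome is switched on. Genes of muscle, nerve, pharynx and cuticle then come on as cells differentiate, so RNA from mixed embryos carries both early and late messages. The diet and growth medium of a worm act on its genes of fat desaturation, fat breakdown and detoxification, which in adults are active largely in the intestine. Mothers also load lipid, yolk and messages into their eggs.

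The deposited values are log2 expression values, so a difference of 1 is 2-fold. The spread of the deposited values differed between the plates, with a standard deviation (SD) over probe sets of 2.43 to 2.45 on the NG arrays and 2.27 to 2.29 on the egg-plate arrays. This points to separate RMA runs for the plates. The 6 arrays were therefore brought to 1 common distribution by quantile normalisation. This equalises the distribution but not the weights that a separate RMA run gives to single probes, so plate type and normalisation run cannot be told apart. Pearson correlations over probe sets were 0.994 to 0.997 among the NG arrays, 0.997 among the egg-plate arrays and 0.970 to 0.980 between them. Arrays give no read depth, and their number limits the precision.

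A gene counts as changed, higher or lower at a Benjamini-Hochberg adjusted p under 0.05 in limma, over 17138 genes. On this rule 7796 genes differed between the plates (45.5%), with 4079 higher (23.8%) and 3717 lower (21.7%) on NG plates. Without the joint normalisation 2470 genes were higher and 10406 lower, and the median of all genes lay at -0.37 in place of 0.01. Most differences were small: 6837 of the called genes changed less than 2-fold. At least 2-fold changes numbered 959 (5.6%), of which 505 were higher (2.95%) and 454 lower (2.65%) on NG plates. Other probe sets of the same gene give a second reading from the same arrays. Among 136 genes called at 2-fold or more that have other probe sets, these had the same sign in 127 (93.4%). Among the 1423 genes that have other probe sets and were not called, the signs matched in 55.9%. On 9659 genes (56.4%) no value of one plate lay within the range of the other, so lack of overlap alone is common here.

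Genes of xenobiotic metabolism were among the largest rises. Cytochrome P450 enzymes oxidise foreign compounds, and UDP-glucuronosyltransferases (ugt genes) couple the products to sugars. The value of cyp-35A3 was 7.24, 8.13 and 7.68 on the NG arrays and 4.76, 4.71 and 4.57 on the egg-plate arrays. The groups were far apart, and the difference was 3.00 (SE 0.19, 8.02-fold, limma adjusted p = 7.51e-06). Its relative cyp-35A2 read 6.96, 7.42 and 7.11 on NG plates against 5.16, 5.47 and 5.43 on egg plates, a difference of 1.81 (SE 0.13, adjusted p = 1.57e-05). No array of one plate reached the range of the other for either gene, which the rule that picked the named genes requires.

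The cyp-35 family was examined after its values were seen, because the largest rise of all genes was that of cyp-35C1. This gene lies outside the rule for named genes, since its probe set ends in _s_at, a mark of probes that can match several transcripts. It read 9.79, 10.01 and 9.68 on NG plates and 5.49, 5.00 and 5.08 on egg plates, a difference of 4.64 (SE 0.14, adjusted p = 3.61e-07). Its other probe sets differed by 2.86 in the same direction. Of 10 measured cyp-35 genes, all on chromosome V, 8 were higher and none lower, with a median difference of 1.03 against 0.01 for all genes. The differences were 1.49 for cyp-35A5, 1.16 for cyp-35B2, 0.90 for cyp-35A4, 0.85 for cyp-35D1 and 0.54 for cyp-35B3, the last not called without the joint normalisation (0.08). The 2 members that were not called were cyp-35B1 (0.05) and cyp-35A1 (0.01). Over all 73 measured cyp genes 17 were higher (23.3%) and 20 lower (27.4%), with a median of 0.005. These shares are near the 23.8% and 21.7% of all genes, so cytochrome P450 genes as a whole did not rise.

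The ugt genes changed in both directions. Among the 12 largest rises that the naming rule allows were ugt-63 (2.34), ugt-8 (2.16), ugt-33 (2.1) and ugt-13 (2.07), whereas ugt-26 (-2.28) was among the 12 largest falls. Values of ugt-8 were 7.44, 7.07 and 7.09 on NG plates and 5.02, 4.95 and 5.13 on egg plates. The NG values lay close together and well above the egg-plate values. Over all 64 measured ugt genes 23 were higher (35.9%) and 14 lower (21.9%), and the median was 0.04. Among all genes 23.8% were higher and 21.7% lower, so the share of lower ugt genes was near that of all genes. In the list of detoxification and oxidative stress genes 12 of 28 members were higher and 6 lower, with a median of 0.18. Its members did not move as a block, and without the joint normalisation the median was -0.07. The glutathione S-transferase gst-4 had 5.74, 5.68 and 5.79 on NG plates and 7.16, 7.30 and 7.22 on egg plates. It was thus lower on NG plates by a log2 difference of -1.49 (SE 0.08, adjusted p = 3.4e-06), opposite to the cyp-35 genes. The metallothionein mtl-2, which binds metals in the intestine and whose probe set ends in _s_at or _x_at, was higher by 1.36 (SE 0.12, adjusted p = 4.45e-05).

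The largest falls belonged to genes of varied kinds. The nuclear hormone receptor nhr-11 read 6.76, 6.73 and 6.82 on NG plates and 10.19, 9.94 and 9.58 on egg plates. All NG arrays lay more than 2 units below all egg-plate arrays, and the difference was -3.13 (SE 0.14, 8.77-fold, adjusted p = 1.54e-06). Its other probe sets differed by -2.85. Values of spp-12, a saposin-like protein of a family that acts against microbes, were 4.32, 4.41 and 4.54 on NG plates and 7.10, 7.58 and 7.26 on egg plates. The NG values lie below the lower quartile of all values, near the floor of the arrays. The difference of spp-12 was -2.89 (SE 0.12, adjusted p = 1.36e-06). The cystatin cpi-1, a protease inhibitor, fell from 9.20, 8.67 and 8.90 on egg plates to 5.68, 5.28 and 5.69 on NG plates, a difference of -3.38 (SE 0.15, adjusted p = 1.68e-06).

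The rule also names hrg-7, a secreted protease-like protein of heme signalling (-3.01), the small heat-shock protein hsp-12.3 (-2.88), ddn-1 (-2.67), gtnt-15 (-2.54) and the long noncoding RNA tts-1 (-2.48). It further names the F-box gene fbxc-58 (-2.44), the C-type lectin clec-1 (-2.43) and the omega-class glutathione transferase gsto-1 (-2.33). The NG arrays were least alike for hrg-7, at 7.06, 8.71 and 8.07, and still lay below the egg-plate values of 10.98, 10.85 and 11.04. The NG means of fbxc-58 and gsto-1 also lie below the lower quartile. Among genes outside the rule, named after their values were seen, the largest fall was that of C49G7.12 (-4.93, SE 0.13), and far-3, a fatty acid and retinol binding protein, fell by 3.26 (SE 0.16).

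**Figure D1:**
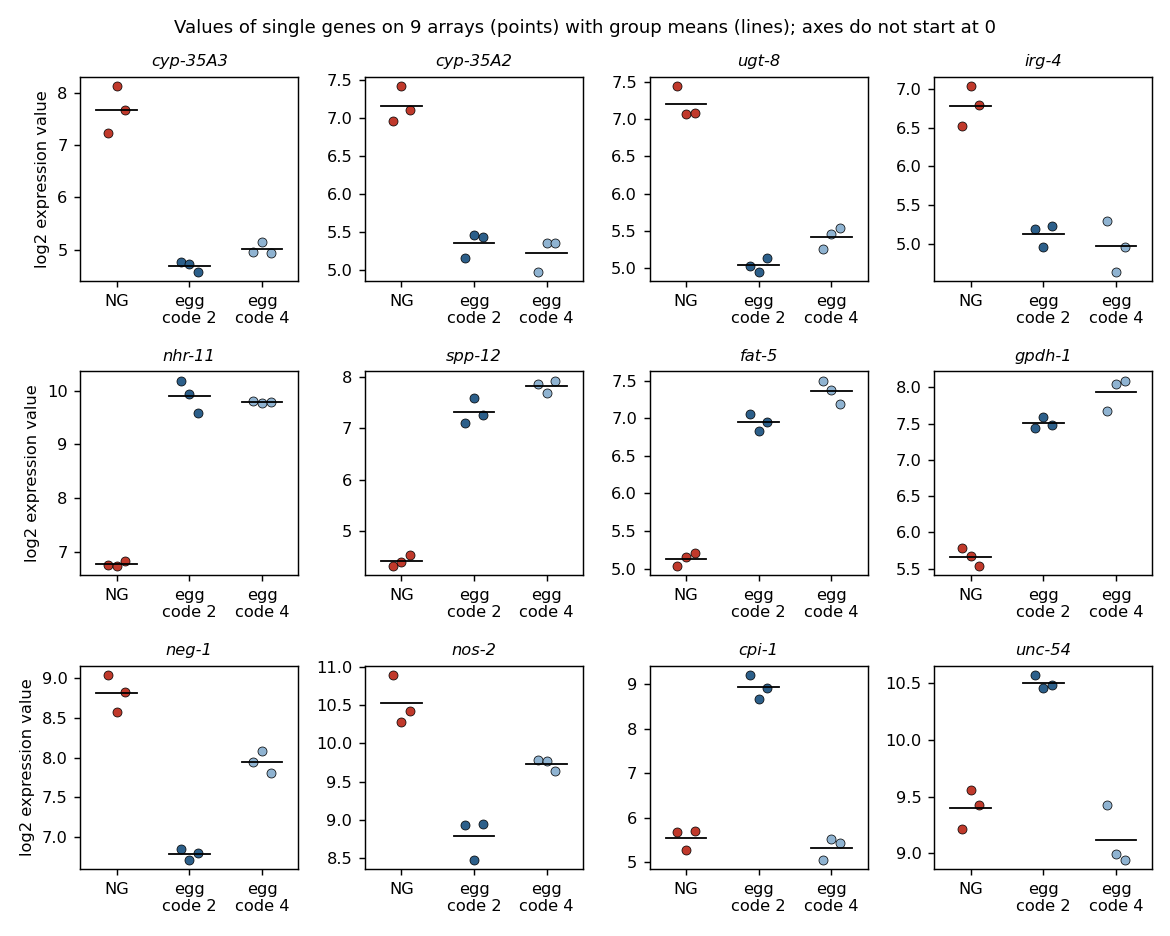
Log2 expression values of 12 genes (vertical axes, which do not start at 0) on the 3 NG arrays and on the egg-plate arrays of date codes 2 and 4 (points, with group means as lines). The NG arrays stand apart from both egg-plate dates for cyp-35A3, cyp-35A2, ugt-8, irg-4, nhr-11, spp-12, fat-5 and gpdh-1, whereas for cpi-1 and unc-54 the egg-plate arrays of date code 2 stand apart from the other 6.

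In both lists of fat genes more members were lower than higher on NG plates. The list of fat synthesis and desaturation had 14 of 30 members lower and 5 higher (median -0.28), and that of fat breakdown and the glyoxylate cycle had 14 of 26 lower and 1 higher (median -0.33). Against these stand the 21.7% lower and 23.8% higher among all genes. With the arrays only shifted to a common median, fat synthesis had 14 lower and 7 higher (median -0.14) and fat breakdown 12 lower and 3 higher (median -0.23). On probe sets without the _s_at or _x_at ending the median of fat breakdown was -0.08, with 8 of 18 lower. The delta-9 desaturases put the first double bond into saturated fatty acids. One of them, fat-5, read 5.04, 5.16 and 5.20 on NG plates and 7.06, 6.83 and 6.95 on egg plates, a difference of -1.81 (SE 0.09, adjusted p = 2.62e-06). Its paralog fat-6 read 5.45, 5.83 and 5.68 against 7.50, 7.39 and 7.24, a difference of -1.72 (SE 0.11, adjusted p = 9.53e-06), on a probe set that can match several transcripts. The NG and egg-plate arrays did not overlap for either gene, as for 56.4% of all genes. The third delta-9 desaturase gene, fat-7, differed by 0.01 (adjusted p = 0.910), and by -0.47 without the joint normalisation.

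Later steps of the pathway went in both directions. The delta-12 desaturase fat-2 (-1.67), the delta-6 desaturase fat-3 (-0.95) and the elongases elo-6 (-1.23), elo-2 (-0.87), elo-5 (-0.84) and elo-3 (-0.73) were lower on NG plates, whereas the elongase elo-1 was higher (0.43, SE 0.09, adjusted p = 0.00331). The differences of fat-1 (-0.29, adjusted p = 0.127) and fat-4 (-0.21, adjusted p = 0.0623) did not pass the test, although fat-1 did without NG replicate A (-0.46) and both did without the joint normalisation. The fatty acid synthase gene fasn-1 differed by 0.16 (adjusted p = 0.186), or 0.24 without NG replicate A, where it passed, while acetyl-CoA carboxylase pod-2, which makes its substrate, was lower (-0.76, adjusted p = 0.000861). Among regulators of these genes, the Mediator subunit mdt-15 was lower (-0.51, adjusted p = 0.00239) and the transcription factor sbp-1 higher (0.32, adjusted p = 0.0138). The receptor gene nhr-49 differed by -0.02 (adjusted p = 0.861).

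Fatty acid breakdown takes place in peroxisomes and in mitochondria, and genes of both were among the 14 lower ones. In the peroxisome, which shortens long fatty acids and makes ascaroside pheromones, the acyl-CoA oxidase acox-1.1 (-1.06), the hydratase maoc-1 (-1.02) and the dehydrogenase dhs-28 (-0.98) were lower. The thiolase daf-22, which acts at the end of that chain, differed by -0.35 (adjusted p = 0.0536) and passed the test without NG replicate B (-0.40) or egg-plate replicate A (-0.47). In mitochondria the acyl-CoA synthetase acs-2 (-1.99) and the carnitine palmitoyltransferase cpt-1 (-0.91) were lower, while the thiolase kat-1 differed by -0.09 (adjusted p = 0.529). Values of acox-1.1 were 7.03, 7.25 and 7.03 on NG plates and 8.27, 8.07 and 8.15 on egg plates. The NG arrays lay more than 0.8 below each egg-plate array. The glyoxylate enzyme icl-1, with which worms turn fat into sugar, was lower by a log2 difference of -0.80 (adjusted p = 5.77e-05), and the gluconeogenic enzyme pck-1 by -1.83 (adjusted p = 2.85e-05). The yolk genes did not pass the test: vit-1, vit-2, vit-4, vit-5 and vit-6 differed by -0.14 to 0.14. All but vit-4 were lower without the joint normalisation. The yolk receptor of the oocyte, rme-2, was higher on NG plates (0.87, SE 0.09, adjusted p = 0.000112).

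Many genes of sugar metabolism were lower too, where 21.7% of all genes were lower and 23.8% higher. Of 24 members of the glycolysis and gluconeogenesis list 17 were lower and 1 higher, with a median of -0.50. On probe sets without the _s_at or _x_at ending 6 of 13 were lower (median -0.19), and with the arrays only shifted to a common median 13 of 24 (median -0.30). The aldolase aldo-1 had the largest difference of the list (-2.27), followed by the pyruvate kinase pyk-2 (-2.06), pck-1 and the triosephosphate isomerase tpi-1 (-1.53). Values of pyk-2 were 6.61, 6.88 and 6.83 on NG plates and 8.73, 9.0 and 8.78 on egg plates. The 2 sets of arrays were about 2 units apart, with an SE of 0.11 (adjusted p = 2.87e-06). By contrast, oxidative phosphorylation had 10 of 39 members higher and 6 lower (median 0.06), and the ribosomal proteins 2 of 59 higher and 5 lower (median -0.01), with 1 to 3 lower without NG replicate A or C or any one egg-plate replicate, and 14 without the joint normalisation. Both lists turned with the scaling. With the arrays only shifted to a common median, 27 ribosomal protein genes were higher and none lower (median 0.21), and 20 of oxidative phosphorylation were higher and 4 lower (median 0.25). Without any joint normalisation the median of oxidative phosphorylation was -0.06.

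Genes of the propionate shunt, by which worms break down propionate when vitamin B12 is short, were lower on NG plates. The 3 that the naming rule allows were alh-8 (-2.08, SE 0.12), hphd-1 (-1.07, SE 0.19) and acdh-1 (-1.04, SE 0.25), and the first 2 were read on probe sets that can match several transcripts. Values of acdh-1 were 9.89, 11.04 and 10.70 on NG plates and 11.39, 11.62 and 11.73 on egg plates. The NG arrays were spread over more than 1 unit and lay below every egg-plate array. The difference of acdh-1 did not pass the test when all 26 arrays shared the fit (-1.01, adjusted p = 0.161). The list they belong to, of one-carbon, methionine and propionate genes, had 13 of 28 members lower and 7 higher (median -0.14). The shares of all genes were 21.7% lower and 23.8% higher. With the arrays only shifted to a common median, 12 members were lower and 11 higher (median -0.01).

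The list of hypoxia and osmotic response genes had the lowest median of the 35 lists. Of its 17 measured members 12 were lower and 1 higher on NG plates (median -1.0), and 8 were at least 2-fold lower. Among all genes 21.7% were lower, 23.8% higher and 2.65% at least 2-fold lower. Glycerol-3-phosphate dehydrogenase, gpdh-1, makes the glycerol with which worms balance a salty medium. It read 5.78, 5.68 and 5.54 on NG plates and 7.44, 7.60 and 7.48 on egg plates, a difference of -1.84 (SE 0.09, adjusted p = 2.62e-06). The inositol transporter hmit-1.1 was lower as well (-1.35), as were the collagen prolyl hydroxylase phy-2 (-1.66) and the carbonic anhydrase cah-4 (-1.69). The groups did not overlap for any of these 4 genes, as for 56.4% of all genes.

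Immune genes split. Of 35 measured members of the innate immunity list 15 were lower and 2 higher (median -0.20), or 30 lower and 2 higher without the joint normalisation, and 8 of the lower ones changed at least 2-fold. Besides cpi-1 and spp-12 these included the lysozymes lys-3 (-2.11) and lys-1 (-1.75). One infection response gene went the other way: irg-4 read 6.53, 7.04 and 6.80 on NG plates and 5.19, 4.95 and 5.22 on egg plates, a difference of 1.66 (SE 0.13, adjusted p = 2.45e-05). It was not in the range of the egg-plate arrays on any NG array.

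The early messages of the embryo were higher on NG plates, where 23.8% of all genes were higher and 21.7% lower. Of 34 maternal messages on the list 29 were higher and none lower, with a median of 0.87, and 13 were at least 2-fold higher. The Nanos gene nos-2, needed in the primordial germ cells, read 10.89, 10.28 and 10.42 on NG plates and 8.93, 8.48 and 8.95 on egg plates. The plates were thus separate by more than 1 unit, and the difference was 1.74 (SE 0.18, adjusted p = 7.36e-05). The zinc-finger proteins of early polarity mex-1 (1.53) and mex-6 (1.5) and the RNA-binding puf-11 (1.39) followed. The probe sets of nos-2 and mex-1 can match several transcripts, as can those of 20 of the 34 genes.

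Several of the largest rises that the naming rule found outside the lists are maternal as well. The rule named neg-1 (2.03), whose maternal product restrains gut fate in anterior cells, memi-2 (1.96) and memi-3 (1.90), which act at the end of oocyte meiosis, and meg-4 (1.87), a P granule protein. It also named such-1 (1.94), of the anaphase-promoting complex, and the ubiquitin ligase marc-3 (1.79). Values of neg-1 were 9.04, 8.58 and 8.82 on NG plates and 6.85, 6.71 and 6.80 on egg plates. Its NG arrays were all about 2 units higher (SE 0.12, adjusted p = 4.87e-06).

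Germline genes had 25 of 29 members higher and none lower (median 0.74), with gld-3 (1.54) and glh-2 (1.46), both parts of P granules, among the largest. The shares of all genes were 23.8% higher and 21.7% lower. Of 26 early zygotic regulators 18 were higher and none lower (median 0.47), led by the forkhead gene pes-1 (1.44). Without the joint normalisation 12 were higher and 4 lower (median 0.23). Cell division genes had 34 of 54 members higher and 1 lower (median 0.42), the RNA interference machinery 21 of 30 higher and 3 lower (median 0.58), and the proteasome 25 of 34 higher and none lower (median 0.47). Members of the dosage compensation complex, which lowers the output of both X chromosomes in XX embryos, were higher in 8 of 10 cases and lower in none (median 0.34). The count was 5 without NG replicate C, 4 without egg-plate replicate A or C, and 4 with the mean of a gene's probe sets or without the joint normalisation. The complex's XX-specific loader sdc-2 differed by 0.66 (SE 0.11, adjusted p = 0.0013). The X-counting switch xol-1, which is active early and high in XO embryos, was higher by 1.63 (SE 0.29, adjusted p = 0.00153), although its egg-plate values of 6.63, 5.28 and 5.53 were far from alike.

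Many genes of muscle, pharynx and nerve were lower on NG plates, where 21.7% of all genes were lower and 23.8% higher. Body wall muscle had 25 of 38 members lower and none higher (median -0.51), the pharynx 12 of 17 lower and none higher (median -0.56), and neurons 32 of 47 lower and 3 higher (median -0.42). The muscle myosin unc-54 read 9.22, 9.56 and 9.43 on NG plates and 10.57, 10.46 and 10.48 on egg plates, a difference of -1.1 (SE 0.10, adjusted p = 4.4e-05). The troponin I gene unc-27 (-1.27) and the syntaxin unc-64 of nerve terminals (-1.23) were lower by similar amounts. Cuticle collagens had 14 of 26 members lower and 1 higher (median -0.32), the epidermis and its apical matrix 14 of 33 lower and 2 higher (median -0.31), and the intestine 14 of 29 lower and 7 higher (median -0.26). The epidermis had no clear direction with the arrays only shifted to a common median, where 9 were lower and 8 higher (median -0.06). On probe sets without the _s_at or _x_at ending 9 of 21 muscle genes were lower (median -0.24). In RNA of whole embryos, fewer cells of a type and less RNA per cell cannot be told apart.

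The mean over the 38 muscle genes was 9.70 to 9.90 on NG arrays and 10.30 to 10.35 on egg-plate arrays, and that over the 34 maternal messages 9.84 to 10.09 and 9.07 to 9.17. Material of adults and larvae was looked for as well. The mean of 27 sperm genes was 5.37 to 5.39 on NG arrays and 5.30 to 5.39 on egg-plate arrays, and that of 12 larval and adult epidermal genes 6.14 to 6.25 and 6.32 to 6.46. The age of the embryos is not in the labels. Early and late genes differed between these 2 groups of arrays, and many of them also differed between the egg-plate dates, as given below. Their part in the other differences was not tested.

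**Figure D2:**
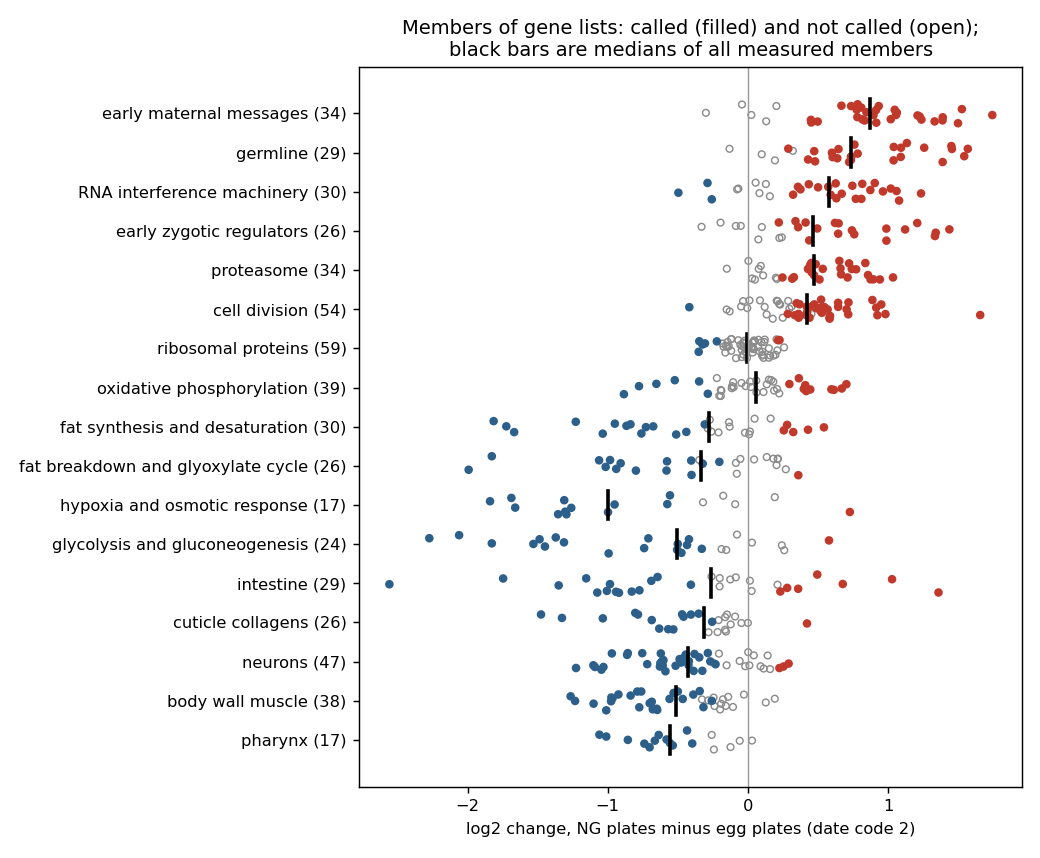
Log2 change of every measured member of 17 gene lists, NG plates minus egg plates of date code 2 (horizontal axis), with the number of members in brackets. Filled points passed the test, open points did not, and black bars are medians, which run from 0.87 for maternal messages to -1.0 for hypoxia and osmotic response genes.

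The egg plates of a second date show which differences recur. The 3 arrays of date code 4 were normalised with the other 6, which moves values slightly, and 3 comparisons were made in 1 fit of 9 arrays. Every pair of these comparisons shares a group, so their values are set side by side and no overlap is counted. Between the egg-plate dates themselves 6495 genes differed (37.9%), with 3501 higher (20.4%) and 2994 lower (17.5%) at date code 4. At least 2-fold differences numbered 980 (5.72%), 252 higher (1.47%) and 728 lower (4.25%), set beside the 959 between NG plates and egg plates of date code 2. Against the egg plates of date code 4 the NG arrays differed in 5268 genes (30.7%), with 2711 higher (15.8%) and 2557 lower (14.9%). These shares stand beside all list counts against date code 4 below. At least 2-fold differences from date code 4 numbered 395 (2.3%), 279 of them higher (1.63%) and 116 lower (0.677%). With the egg plates of both dates as 1 control group of 6 arrays, 2678 genes differed (15.6%), 1355 higher (7.91%) and 1323 lower (7.72%), and 260 of them by at least 2-fold (1.52%).

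Early and tissue genes split between the egg-plate dates. The muscle list lay at a median of -0.63 at date code 4 against date code 2, and of 0.01 on NG plates against date code 4, where 9 of its 38 members were higher and 7 lower. For unc-54 the arrays of date code 4 read 9.43, 8.99 and 8.94, close to the NG arrays and below those of date code 2. The pharynx list was at -1.21 between egg-plate dates and at 0.36 on NG plates against date code 4, with 8 of 17 members higher and 2 lower there. The sign of the pharynx list on NG plates therefore depended on the egg-plate date. Neurons had 13 of 47 members higher and 6 lower against date code 4 (median 0.01), and with both dates as control 6 were lower and none higher. The intestine list had 11 of 29 members higher and 7 lower against date code 4 (median 0.06), with a median of -0.39 between egg-plate dates. Cuticle collagens had 6 of 26 higher and 8 lower there (median -0.19), and the epidermis 4 of 33 higher and 3 lower (median -0.07).

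Maternal messages differed from both dates. Against date code 4, 21 of 34 were higher on NG plates and none lower (median 0.44, against 15.8% and 14.9% of all genes), and against both dates together 17 were higher and none lower (median 0.74). Egg plates of date code 4 lay between, at a median of 0.43 above date code 2. Values of nos-2 there were 9.78, 9.77 and 9.64, between the other groups without overlap, and neg-1 at 7.95, 8.08 and 7.80 was placed the same way. Germline genes had 11 of 29 members higher and 2 lower against date code 4 (median 0.28). Early zygotic regulators had 2 of 26 higher and 4 lower (median -0.11), and cell division genes 8 of 54 higher and 8 lower (median 0.00). The RNA interference machinery had 4 of 30 higher and 5 lower (median 0.0001), and the proteasome 6 of 34 higher and 1 lower (median 0.12). In the dosage compensation complex 1 of 10 was higher and none lower (median 0.04), and none was called with both dates as control.

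For cyp-35A3, fat-5 and several related genes the NG arrays differed from the egg plates of both dates. The arrays of date code 4 gave 4.96, 5.15 and 4.94 for cyp-35A3, and the NG arrays exceeded them by 2.68 (SE 0.18, adjusted p = 2.49e-06). The 2 egg-plate dates differed by 0.25 for this gene (adjusted p = 0.303). Against date code 4 the NG arrays were higher by 4.74 for cyp-35C1, 1.93 for cyp-35A2, 1.78 for ugt-8, 1.60 for ugt-63 and 1.81 for irg-4. In the cyp-35 family 7 of 10 genes were higher and none lower against date code 4. Of the other ugt genes, ugt-13 differed by 0.49 from date code 4 (adjusted p = 0.0611), with 1.58 between the egg-plate dates.

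Among lower genes, nhr-11 differed by -3.03 and spp-12 by -3.31 from date code 4, and far-3 by -3.05. For cpi-1, hrg-7 and gsto-1 the picture was the reverse: NG plates differed from date code 4 by 0.26, 0.03 and 0.05, none passing the test, and the 2 egg-plate dates by -3.63, -3.04 and -2.28. Thus 3 of the 12 largest falls were not found with egg plates of the other date. Those of ddn-1 (-0.46) and ugt-26 (-0.61) passed the test against date code 4 but were small there. The egg-plate dates differed by -2.18 for ddn-1 and -1.71 for ugt-26. With both dates as control neither gene passed (limma adjusted p = 0.120 and 0.0751), nor did cpi-1, hrg-7 or gsto-1. For the lysozyme lys-1 the difference from date code 4 was 0.04 (adjusted p = 0.742). The innate immunity list had 6 of 35 members lower and 4 higher against date code 4 (median -0.09). Among all genes 14.9% were lower and 15.8% higher there.

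Fat synthesis had 15 of 30 members lower and 2 higher against date code 4 (median -0.30), and fat breakdown 15 of 26 lower and 1 higher (median -0.37). The differences from date code 4 were -2.16 for fat-5, -1.38 for fat-6, -0.59 for fat-2, -1.58 for acox-1.1, -1.29 for maoc-1 and -1.12 for cpt-1. With both dates as control 12 fat synthesis genes and 14 fat breakdown genes were lower and none higher. One elongase changed sign: elo-5 was higher on NG plates than at date code 4 by 0.64 (adjusted p = 0.0246). Glycolysis had 11 of 24 members lower and 1 higher against date code 4 (median -0.28), where pyk-2 differed by -1.46 and aldo-1 by -0.70. Of the hypoxia and osmotic response genes 7 of 17 were lower and 3 higher (median -0.31). In this list gpdh-1 differed by -2.24 from date code 4, and cah-4 by -0.46 (adjusted p = 0.0824). With 26 arrays normalised together, hmit-1.1 had means of 5.11 on NG plates and, on egg plates, 6.26 at date code 2 and 5.39 at date code 4.

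**Figure D3:**
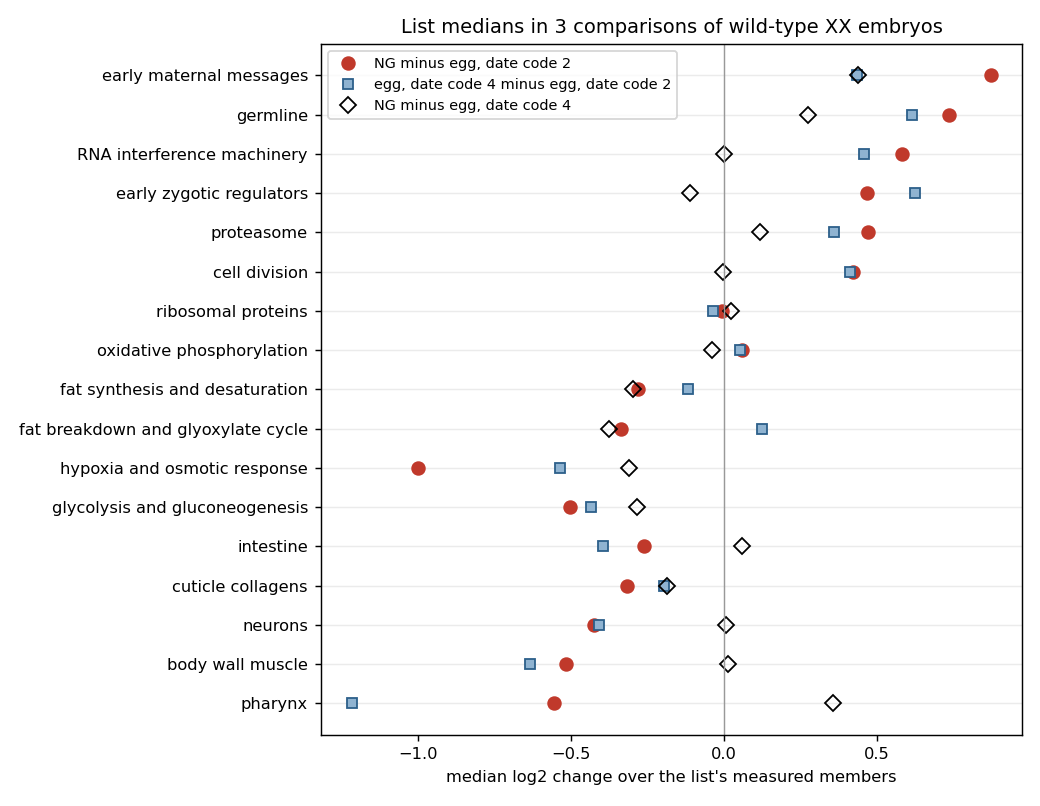
Median log2 change over the measured members of 17 lists (horizontal axis) in 3 comparisons of wild-type XX embryos. For muscle the comparison with date code 4 sits at 0.01 and that of the 2 egg-plate dates at -0.63, whereas for fat breakdown NG plates sit at -0.33 and -0.37 against the 2 dates and the dates at 0.12.

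Expressed X-linked genes lay lower on NG plates as a group. An X shift was computed per array, as the median over expressed X-linked genes less the median over expressed autosomal genes, each gene taken relative to its mean on the egg-plate arrays. Expressed genes are those above the median level, 1263 X-linked and 7281 autosomal. The shift was -0.36, -0.23 and -0.29 on the NG arrays and -0.006, -0.0005 and 0.005 on the egg-plate arrays, which lie near 0 by construction. The 2 sets were fully separate, and the difference was -0.29 (SE 0.04), a ratio of 0.817 (two-sided exact permutation test, p = 0.1, the smallest that 3 against 3 arrays can give). Of the expressed X-linked genes 524 were lower (41.5%) and 202 higher (16%).

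No autosome was near this. Medians of expressed genes were 0.13 for chromosome I, 0.09 for II, 0.12 for III, 0.06 for IV, -0.02 for V and -0.20 for X. Egg plates of date code 4 had shifts of -0.22, -0.27 and -0.28 against date code 2, a difference of -0.26 (SE 0.02, exact permutation p = 0.1). NG plates differed from date code 4 by -0.05 (SE 0.04, ratio 0.967, exact permutation p = 0.4). The X shift of NG plates was therefore tied to the egg-plate date used as control. Early and tissue genes moved with these groups of arrays, and 14 of the 38 muscle genes, 12 of the 47 neuronal genes and none of the 34 maternal messages are X-linked. Their part in the X shift was not tested.

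**Figure D4:**
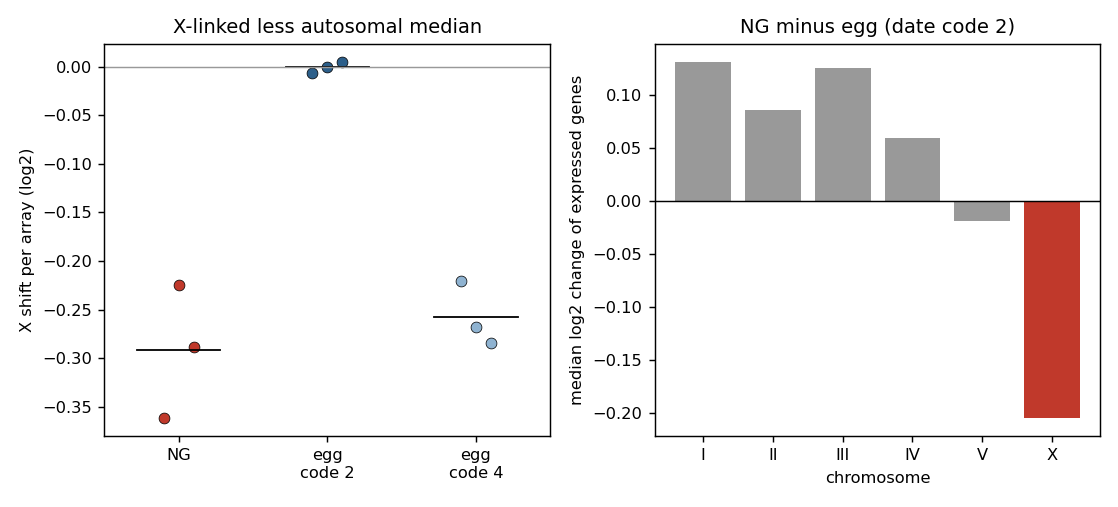
Left, X shift (log2, vertical axis) of each of 9 arrays (points) with group means (lines), relative to the egg-plate arrays of date code 2. Right, median log2 change of expressed genes by chromosome, NG plates minus egg plates of date code 2 (bars from 0). The NG arrays and the egg-plate arrays of date code 4 lie between -0.22 and -0.36, and X is the chromosome with the lowest median, at -0.20.

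Heat-shock genes, which protect proteins in stress, had no common direction. The small heat-shock gene hsp-16.2 read 11.78, 11.97 and 11.70 on NG plates and 12.59, 12.27 and 11.77 on egg plates. The ranges overlap, and the difference of -0.39 (SE 0.18, adjusted p = 0.109) did not pass the test, but did without egg-plate replicate C (-0.60) or without the joint normalisation (-0.48). For hsp-16.41 the difference was 0.05 (adjusted p = 0.859). The inducible hsp-70 was lower on NG plates (-1.46, SE 0.24, adjusted p = 0.00101), on a probe set that can match several transcripts. Of the 12 measured heat-shock genes 3 were higher and 4 lower (median -0.27), beside 23.8% higher and 21.7% lower among all genes. The median had the opposite sign against date code 4, at 0.45, where 5 were higher and 1 lower.

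The other groups of the series give further levels of some of these genes, which were picked from the differences above. All 26 arrays were normalised together for this, and group means are over 3 arrays, or 5 for XO embryos of date code 5. The 4 egg-plate groups, wild type and XO, had means of 9.42 to 10.00 for nhr-11 and 7.02 to 7.84 for spp-12. The 4 groups from NG or RNAi plates, wild type and mutant, had 6.80 to 7.81 for nhr-11 and 4.76 to 5.01 for spp-12. No array of an egg-plate group overlapped the other groups for either gene. Group means of fat-5 were 6.97 to 7.39 on egg plates and 5.26 to 6.07 elsewhere. However, 1 XO array of date code 5 was as low as 6.37, inside the range of the sdc-2 embryos. Not all named genes were ordered by plate type. The mean of cpi-1 was 5.49 in wild type on egg plates of date code 4, 7.65 in dpy-27 and 9.85 in sdc-2 embryos. Plate type and normalisation run cannot be told apart here either, and dates and genotypes differ between groups.

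The cyp-35A3 gene was at 4.91 to 5.21 in the egg-plate groups, at 7.72 in wild type on NG plates and at 7.55 in wild type fed bacteria with an empty plasmid on RNAi plates. The dpy-27 embryos on NG plates (6.27) and the sdc-2 embryos on RNAi plates (6.01) lay between. Wild type on NG plates exceeded dpy-27 by 1.44 (SE 0.17, adjusted p = 2.33e-07) and differed from wild type on RNAi plates by 0.17 (adjusted p = 0.433). In that 26-array fit NG plates differed from RNAi plates in 7809 genes (45.6%) and from dpy-27 embryos in 6506 (38%). Wild-type means of the propionate shunt gene acdh-1 were 10.64 on NG plates, 11.66 and 11.43 on egg plates, and 4.97 on RNAi plates. The XO embryos on egg plates, at 10.28 and 9.81, lay below wild type on NG plates. The mean was 8.33 in dpy-27 embryos on NG plates, with arrays from 6.08 to 9.82, and 4.82 in sdc-2 embryos. This gene was thus not ordered by plate type across the groups. RNAi plates carry bacteria of the feeding library, per the labels' protocols.

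**Figure D5:**
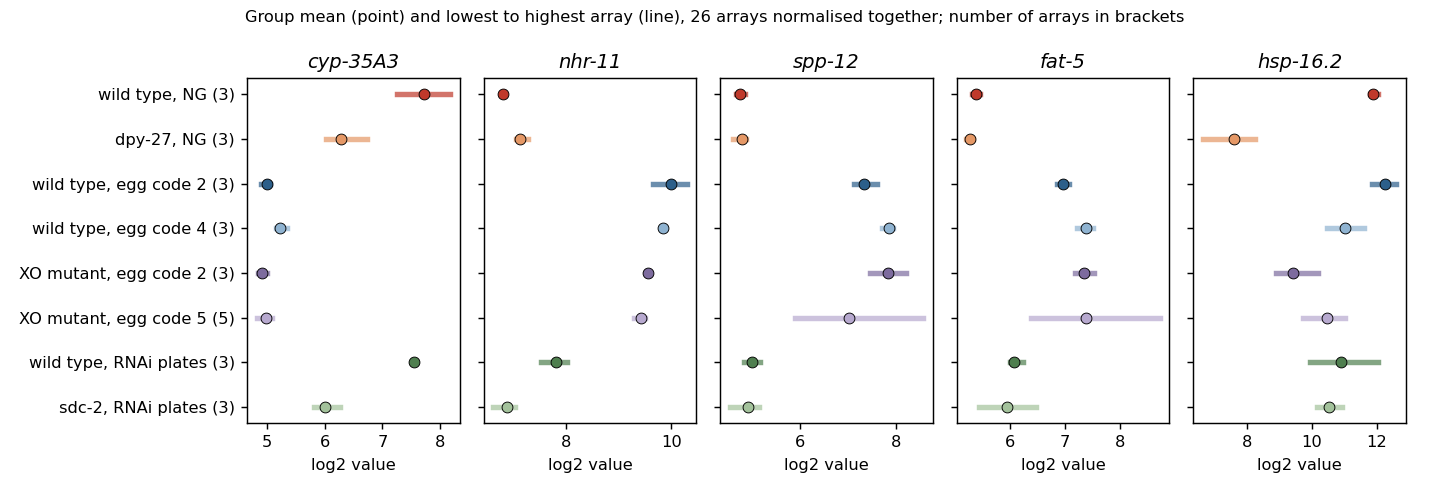
Group means (points) and lowest to highest array (lines) of 5 genes in the 8 groups of the series, as log2 values after joint normalisation of 26 arrays. The egg-plate groups are high for nhr-11 and spp-12 and low for cyp-35A3, at 4.91 to 5.21, whereas hsp-16.2 is lowest in dpy-27 embryos, at 7.61.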

How the data were processed

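Expression was measured on Affymetrix arrays, 1 per sample, in 26 samples, of which 6 enter the main comparison. Per the submitters' processing notes the authors used RMA (version not given), and each deposited value is the log2 expression of a probe set on an array. Of 22548 probe sets 20766 name 1 gene and were used, while 887 with several genes and 895 without a listed gene were not. A gene is read from its brightest probe set over the 6 arrays, and 4251 of 17138 kept probe sets end in _s_at or _x_at. The 6 columns were quantile-normalised together and fitted with limma 3.58.1 under R 4.3.3 (lmFit and eBayes, 4 residual and 5.23 prior degrees of freedom, Benjamini-Hochberg adjustment over 17138 genes). No filter on low values was used. Fits of 9 and of 26 arrays had 6 and 18 residual degrees of freedom.

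Named genes are the 12 largest rises and 12 largest falls by log2 change that pass the test, do not overlap between the plates, have a symbol of letters and a number, a probe set without these endings, a higher mean above the median of all genes and other probe sets of the same sign. Up to 4 called members of each of 35 lists were added, and all of the heat-shock, fat and yolk lists may be given. Members and lists were chosen with earlier results of these data known. Replicate letters did not pair the arrays (correlations of deviations between same-letter arrays 0.06, 0.08 and 0.0003). The fit was also run on simulated arrays in which far fewer genes changed than were called here. Separate probe weights were not simulated, so no conclusion on the counts is drawn from that run. Alternatives covered normalisation, probe choice, level filter, thresholds, weights, the egg-plate date and each array left out.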

Additional observations from a re-analysis of the deposited data

How the results depend on the processing

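The 7796 changed genes, of 17138 tested, became 12876 with the deposited values taken as they stand. They numbered 2678 with egg plates of both dates as control and 1394 when tested against a log2 change of 0.5. With genes above the median level only, 5196 of 8569 tested were changed, a larger share than in the main fit. The 959 genes with at least 2-fold changes became 260 with both dates and 395 against date code 4 alone, an alternative added after seeing the data. Leaving out 1 array gave 6399 to 7520 changed genes and 808 to 1134 at least 2-fold, and the replicate letters as a replicate block gave 7609 and 959. The X shift was negative in every setting run, but ranged from -0.30 without joint normalisation through -0.16 with both dates and -0.12 with dim genes to -0.05 against date code 4 alone, and was -0.33 to -0.26 with 1 array left out. Between egg-plate dates, 5206 to 6201 genes differed with 1 array left out. With all 26 arrays in the fit the count was 6816.

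Among single genes named above, cyp-35A1 (-0.49), cyp-35B1 (-0.46), fat-7 (-0.47), vit-1 (-0.32), vit-2 (-0.46) and vit-6 (-0.32) were lower with the deposited values as they stand, which carry a shift of -0.37 in the median of all genes. Against egg plates of date code 4 the sign turned for cpi-1 (0.26), elo-5 (0.64), gsto-1 (0.050), hrg-7 (0.027), hsp-16.2 (0.89), hsp-70 (0.67), lys-1 (0.044) and unc-54 (0.31). The cause was not tested. With probe sets that can match several transcripts left out, vit-6 was higher (0.41), and with fewer genes tested muscle had 9 of 21 members lower (median -0.24), neurons 18 of 28 (median -0.36), fat breakdown 8 of 18 (median -0.08) and glycolysis 6 of 13 (median -0.19). Signal near the floor of the arrays limits the size of falls such as that of spp-12.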

Other observations

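Gene families were counted by symbol for the families with 20 or more measured genes, and those named here were chosen after their values were seen. Beside the counts against date code 2 stand 23.8% higher and 21.7% lower among all genes. The fbxb family, F-box proteins that pick targets for ubiquitination, had 73 of 95 members higher on NG plates than on egg plates of date code 2 (76.8%) and 1 lower, with a median of 0.74, and 12 of the 95 were read on probe sets that can match several transcripts. The sdz genes, zygotic genes that depend on the maternal factor SKN-1, had 25 of 32 members higher and none lower (median 0.60), and the nuclear pore genes (npp) 20 of 26 higher and 1 lower (median 0.40). Egg plates of date code 4 had medians of 0.87, 0.66 and 0.45 above date code 2 for these families, and NG plates of -0.08, -0.03 and -0.03 against date code 4.

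On the other side, 61 of 128 collagen genes were lower on NG plates and 3 higher (median -0.27), where 21.7% of all genes were lower. Against date code 4, 33 collagen genes were lower and 29 higher (median -0.15), beside 14.9% lower and 15.8% higher among all genes. Between the egg-plate dates 41 collagen genes were lower at date code 4 and 8 higher. Of 25 FMRFamide-like neuropeptide genes (flp) 15 were lower on NG plates than at date code 2 and 2 higher (median -0.41). For the flp genes the median was -1.01 between the egg-plate dates and 0.69 on NG plates against date code 4, where 17 were higher and none lower. The pals genes, some of which respond to intracellular pathogens, had 15 of 23 members lower and none higher (median -0.43), and against date code 4 they had 6 lower and none higher (median -0.20).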
